A study of Mus musculus with 15 samples.

Results

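The Ras family of small GTPases was followed through 9 genes, Nras, Hras, Rras, Rras2, Mras, Rala, Ralb, Rap1a and Rap1b, out of 53801 genes counted in mouse adult neural stem cells (aNSCs) after deletion of Trrap. The genes were chosen by name as Ras, Ral and Rap genes and Nras was set against the others with the values of these libraries already known. All 3 comparisons between the groups therefore count as used in the choice. For the 9 genes the fold changes are given as a description, without p-values, and the number of them that passed the threshold (an adjusted p under 0.05 over all genes tested, "called" in what follows) is given only beside the share of all genes that did.

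RNA-seq was performed on aNSCs, dividing progenitors grown in suspension with EGF and bFGF. They were taken from the subventricular zone when the mice were 2 months old. The mice had a C57BL6/J-129sv background, and all cultures carried the Rosa26-CreERT2 tg, a Cre recombinase that is expressed from a broadly active locus and works only once 4-hydroxytamoxifen (4-OHT) is bound, and at least 1 floxed allele of Trrap. Trrap encodes a large adaptor of histone acetyltransferase complexes. Of the 15 libraries, 5 came from untreated Trrap Fl/+ cultures (mice 19, 24, 26, 35 and 36), 5 from Fl/+ cultures of the same mice given 4-OHT, and 5 from Trrap Fl/Fl cultures given 4-OHT (mice 27, 28, 29, 37 and 39). The Fl/+ cultures given 4-OHT could lose 1 copy of Trrap, so the controls of the deletion carry a heterozygous floxed allele exposed to Cre. No Fl/Fl culture without 4-OHT was analysed here. By their labels 3 mice of each group were male and 2 female.

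Assigned counts ranged from 25.7 M to 32.2 M per library. Trrap itself was at 82.8 to 142 CPM (counts scaled to library size with TMM factors) in Fl/Fl 4-OHT cultures, 138 to 204 CPM in Fl/+ 4-OHT cultures and 179 to 214 CPM in untreated cultures, and its log2 fold change between the 2 groups given 4-OHT was -0.64 (SE 0.160). The counts cover the whole gene, so a transcript that lacks only the floxed part would still be counted. Markers of neural stem cells were present in every library, with 8 genes summing to 7611 to 14000 CPM, but single markers moved with the groups. Gfap, also a marker of astrocytes, was at 14.5 to 108 CPM in untreated, 63.7 to 1279 CPM in Fl/+ 4-OHT and 231 to 2264 CPM in Fl/Fl 4-OHT cultures. Fabp7 was at 2477 to 4549, 2294 to 3467 and 1515 to 2215 CPM, and Slc1a3 at 2572 to 3922, 1618 to 2348 and 2077 to 2683 CPM. Of the markers of other cells, 4 of 5 for microglia, 2 of 7 for endothelial and mural cells (Cldn5 and Cdh5) and 2 of 4 for fibroblasts had at most 3 counts in any library. All 7 endothelial and mural markers summed to 6.22 to 14.7 CPM in untreated, 8.77 to 15.3 CPM in Fl/+ 4-OHT and 9.96 to 24.0 CPM in Fl/Fl 4-OHT cultures. The 4 fibroblast markers summed to 0.698 to 2.27, 1.33 to 3.47 and 1.41 to 3.51 CPM in the same order. The 5 oligodendrocyte markers summed to 32.9 to 178 CPM in untreated, 158 to 651 CPM in Fl/+ 4-OHT and 213 to 1911 CPM in Fl/Fl 4-OHT cultures, and the 5 neuronal markers to 66.1 to 153, 38.3 to 129 and 24.1 to 42.4 CPM. Their part in the fold changes given below was not tested, and in bulk RNA fewer cells of a type cannot be told apart from less RNA per cell. Sex-linked genes went against the label of 1 library and were mixed in 2 others. The library labelled Fl/Fl 39, female by its label, had 0.313 CPM of Xist and 213 CPM of 4 Y-linked genes, and the Fl/+ 4-OHT library of mouse 36, labelled male, had 74.7 CPM of Xist beside 205 CPM of Y-linked genes. The untreated library of that mouse had 5.89 CPM of Xist beside 217 CPM of Y-linked genes, where the other libraries with Y-linked counts had at most 0.541 CPM of Xist. Values or ranges of the 9 genes without these libraries are given with the single genes or with the counts of calls.

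Ras proteins are molecular switches that are active when bound to GTP and inactive when bound to GDP. Exchange factors load them with GTP, GTPase-activating proteins (GAPs) turn them off, and lipid anchors attach them to membranes, where growth factor receptors reach them. Nras and Hras pass signals from receptors such as those for EGF and FGF to Raf kinases and the ERK pathway. The R-Ras branch (Rras, Rras2 and Mras) acts in adhesion and in Raf activation, the Ral proteins (Rala and Ralb) act on the exocyst and vesicle traffic, and the Rap1 proteins (Rap1a and Rap1b) act on integrins and cell junctions.

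The genes lie on several chromosomes, with Hras, Rras and Rras2 on chromosome 7 and Nras and Rap1a on chromosome 3. Nras (ENSMUSG00000027852, GRCm38, chromosome 3, 103058285 to 103067914) is on the plus strand, and Rap1a (105727267 to 105801336 of that chromosome) is on the minus strand. Counting used the strand, and the features that overlap the 9 genes held at most 2 counts over the 15 libraries, apart from Gm43328 inside Rap1a with 380 counts against 25689 for Rap1a. The study was concerned with Sp1, a transcription factor that binds GC boxes, so the core motif GGGCGG was counted on both strands (as CCGCCC on the other), overlapping matches included, in the RefSeq promoter windows of GRCm38.p6, which run from 250 bases before to 50 bases after a start. Of 32851 windows 35.7% hold at least 1 match, 19.5% hold 2 or more and 10.7% hold 3 or more. For 8 of the 9 genes a window was listed, and Rap1a had none. The window of Rap1b held 4 matches, those of Nras and Hras 3 each, those of Rras2, Mras, Rala and Ralb 2 each, and the 3 windows of Rras 0. The 90 bases upstream of the annotated start are shown for Nras, Hras, Rala and Ralb, which passed the threshold as lower in Fl/Fl cultures, as did 15.0% of all genes tested, and for Rap1b, which has the most matches. Each is written 5′ to 3′ on the strand of its gene, with matches in capitals.

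Nras, chr3:103058195-103058284, plus strand: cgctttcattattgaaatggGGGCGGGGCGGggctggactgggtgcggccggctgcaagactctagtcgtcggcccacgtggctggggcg

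Hras, chr7:141194006-141194095, minus strand: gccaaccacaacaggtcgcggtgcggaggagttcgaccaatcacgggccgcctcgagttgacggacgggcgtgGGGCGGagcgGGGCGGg

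Rala, chr13:17944240-17944329, minus strand: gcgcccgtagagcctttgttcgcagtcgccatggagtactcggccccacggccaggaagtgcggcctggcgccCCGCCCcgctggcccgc

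Ralb, chr1:119504795-119504884, minus strand: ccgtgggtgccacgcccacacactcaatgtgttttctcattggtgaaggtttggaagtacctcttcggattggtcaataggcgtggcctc

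Rap1b, chr10:117846036-117846125, minus strand: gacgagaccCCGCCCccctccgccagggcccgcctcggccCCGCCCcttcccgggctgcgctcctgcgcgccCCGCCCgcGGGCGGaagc

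In these 90 bases Nras and Hras held 2 matches each, Rala 1, Ralb 0 and Rap1b 4. The pair in Nras overlap by 1 base. The 2 matches of Ralb lie elsewhere in its window. A match is a description of letters only, and the part of these letters in the RNA levels was not tested.

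Nras, the first gene of the list, was at about the same level within each group and far lower after the deletion. In untreated Fl/+ cultures it was at 179.5, 188, 166, 212 and 222 CPM (mice 19, 24, 26, 35 and 36). After 4-OHT the same mice gave 229, 238, 210.1, 225 and 242 CPM. In Fl/Fl cultures after 4-OHT it was at 105, 109.7, 104, 117 and 102 CPM (mice 27, 28, 29, 37 and 39). Every Fl/Fl library lay below every Fl/+ library, treated or not. The group means were 194 ± 23.1, 229 ± 12.4 and 107 ± 5.91 CPM (SD, n = 5 each), from 2940 to 7508 counts per library. Between Fl/Fl and Fl/+ cultures given 4-OHT the log2 fold change was -1.08 (SE 0.0631), a ratio of 0.474. Of 15036 genes tested, 319 (2.12%) had a lower log2 fold change. The estimate was -1.07 without Fl/Fl 39, -1.07 without Fl/+ 4-OHT 36, and -1.12 to -1.04 over all alternatives.

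In Fl/+ cultures given 4-OHT Trrap was lower in 5 of 5 mice (mean paired log2 difference -0.22 ± 0.181, SD). The group ranges of Trrap overlapped, and it was not called, with 0 of 18 alternatives passing. Nras was higher in these cultures than in untreated ones in 5 of 5 mice, with a log2 fold change of 0.24 (SE 0.0923). Its group ranges overlapped, 166 to 222 CPM against 210.1 to 242 CPM, and it did not pass the threshold. It passed with the mouse as a replicate block (log2 fold change 0.25), and when the untreated library of mouse 36 was left out (0.30). Set against untreated Fl/+ cultures, Fl/Fl cultures given 4-OHT had a log2 fold change of -0.84 (SE 0.0893). The 3 comparisons share libraries, so these values are not independent of each other.

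Hras, which differs from Nras mainly in its lipid-anchored tail, was lower in Fl/Fl cultures by a smaller amount. It was at 80.5, 58.0, 61.6, 63.6 and 64.5 CPM in untreated cultures and at 63.1, 67.5, 81.6, 64.8 and 59.95 CPM after 4-OHT. In Fl/Fl cultures it was at 49.96, 55.1, 44.8, 53.9 and 53.4 CPM. The Fl/Fl libraries lay below both other groups, whose ranges overlapped. The log2 fold change was -0.38 (SE 0.0927) for the deletion, 0.04 (SE 0.110) for 4-OHT and -0.34 (SE 0.0983) for Fl/Fl 4-OHT against untreated. The last was no longer called with library size alone (-0.25), without Fl/Fl 27 (-0.33) or without Fl/Fl 29 (-0.29).

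**Figure D1:**
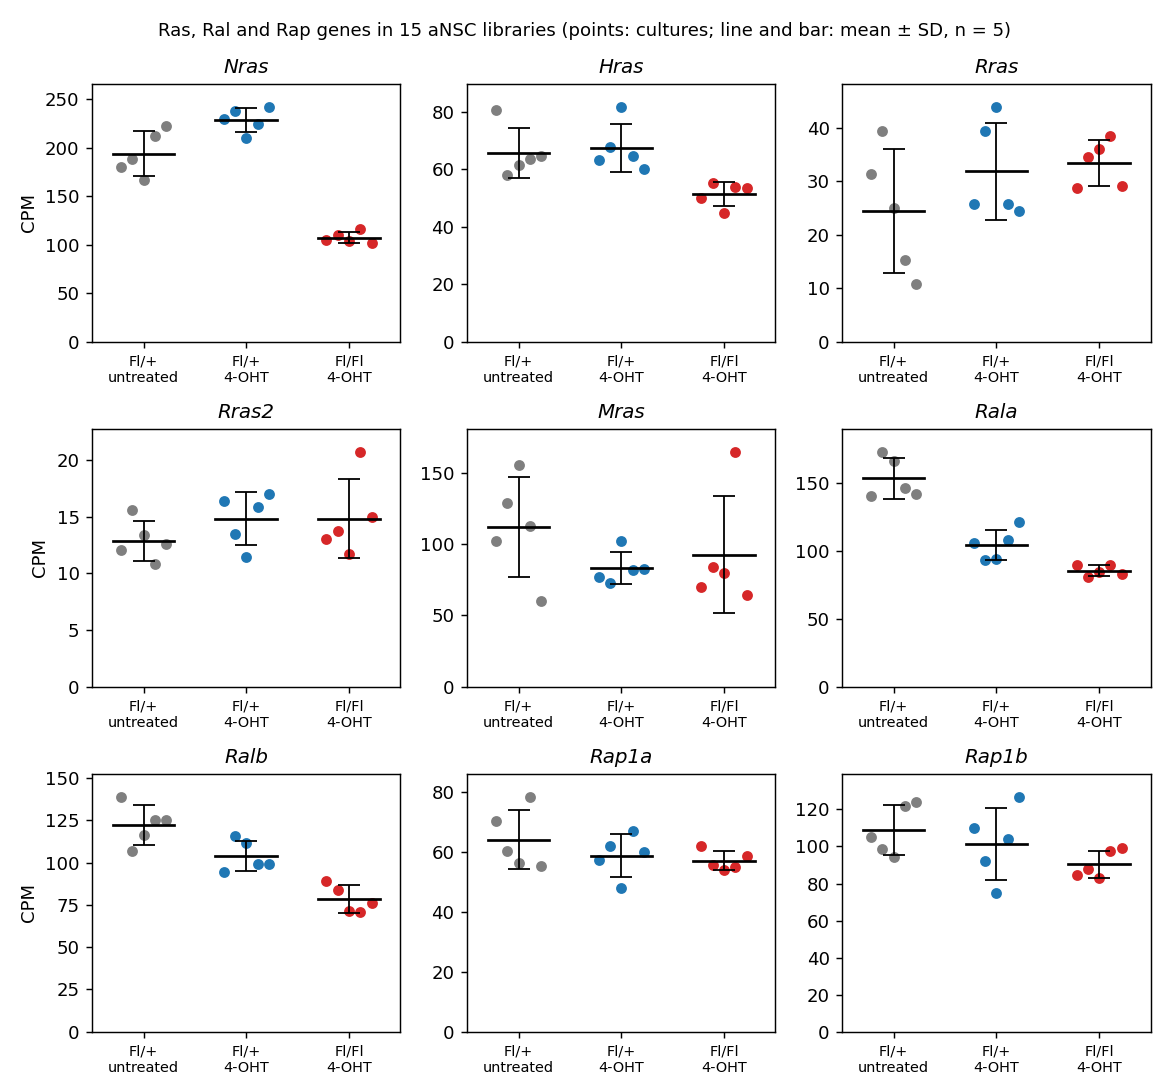
Level of each of the 9 genes in CPM (y axis, from 0, with its own scale in each panel) in the 15 libraries by group (x axis); points are cultures, lines and bars are the mean ± SD of 5. Nras sits at 102 to 117 CPM in Fl/Fl 4-OHT cultures against 166 to 242 CPM in the Fl/+ cultures, Rala steps down from group to group, and 1 Fl/Fl library stands at 164 CPM of Mras.

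In the R-Ras branch the spread between cultures was widest for Rras in the untreated group (CV 47.5%) and for Mras in the Fl/Fl group (CV 44.4%), whereas Rras2 had a CV of 13.7% to 23.6%. Rras, an adhesion-linked GTPase, was at 31.3, 39.4, 24.97, 15.3 and 10.9 CPM in untreated cultures (mice 19, 24, 26, 35 and 36). After 4-OHT it was at 25.8, 39.4, 43.8, 25.7 and 24.5 CPM, and in Fl/Fl cultures at 28.7, 34.5, 36.1, 38.5 and 29.1 CPM. The untreated cultures of mice 35 and 36 were the lowest of all 15. The log2 fold change was 0.08 (SE 0.178) for the deletion and 0.39 (SE 0.320) for 4-OHT, the second with 3 mice higher and 2 lower. With 1 library left out the second was 0.20 to 0.63, lowest without the untreated library of mouse 36. The sign of the first turned when the Fl/+ 4-OHT library of mouse 35 or 36 was left out. Rras2, also called TC21, was at 10.8 to 15.6, 11.4 to 17.0 and 11.7 to 20.7 CPM in untreated, Fl/+ 4-OHT and Fl/Fl 4-OHT cultures. Its log2 fold change was 0.01 (SE 0.163) for the deletion, and -0.15 without Fl/Fl 37, which had the 20.7 CPM.

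Mras, a partner of Shoc2 in Raf activation, was decided by single cultures. It was at 102, 128, 156, 113 and 60.2 CPM in untreated cultures and at 76.9, 72.9, 102, 81.6 and 82.6 CPM after 4-OHT. In Fl/Fl cultures it was at 69.9, 84.1, 79.7, 164 and 64.0 CPM, so that Fl/Fl 37 stood apart from the other 4. The deletion log2 fold change was 0.16 (SE 0.228) with that library and -0.16 (SE 0.115) without it. After 4-OHT the log2 fold change was -0.43 (SE 0.205), with 4 mice lower and 1 higher. The higher one was mouse 36, and without its untreated library the value was -0.58 and passed the threshold.

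Of the Ral genes, Rala stepped down from group to group, and Ralb was lowest in Fl/Fl cultures. Rala was at 140.1, 173, 166, 146 and 142 CPM in untreated cultures, at 106, 93.6, 93.9, 108 and 121 CPM after 4-OHT, and at 89.4, 80.7, 84.7, 89.8 and 82.8 CPM in Fl/Fl cultures. No group overlapped another, with untreated cultures highest and Fl/Fl cultures lowest. The log2 fold change was -0.55 (SE 0.0963) for 4-OHT, with 5 of 5 mice lower, -0.27 (SE 0.0769) for the deletion and -0.83 (SE 0.0819) for Fl/Fl 4-OHT against untreated. In contrast to Nras, more of the difference of Rala from untreated cultures was thus already found in the Fl/+ cultures given 4-OHT.

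Ralb was at 139, 107, 116, 125 and 125 CPM in untreated cultures, at 94.7, 116, 112, 98.9 and 98.9 CPM after 4-OHT, and at 89.4, 84.1, 71.3, 70.7 and 76.4 CPM in Fl/Fl cultures. In each Fl/Fl library Ralb was lower than in any Fl/+ library, while the treated and untreated Fl/+ groups overlapped. Its log2 fold change was -0.39 (SE 0.0887) for the deletion, -0.23 (SE 0.0895) for 4-OHT, with 4 mice lower and 1 higher, and -0.63 (SE 0.0933) for Fl/Fl 4-OHT against untreated. The 4-OHT value did not pass the threshold, and the difference between the 2 genes was not tested.

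The ranges of both Rap1 genes overlapped between groups. Rap1a was at 55.2 to 78.3, 47.8 to 66.8 and 54.0 to 62.0 CPM in untreated, Fl/+ 4-OHT and Fl/Fl 4-OHT cultures, so the 3 ranges overlapped. Its log2 fold change was -0.03 (SE 0.0871) for the deletion and -0.12 (SE 0.121) for 4-OHT. Rap1b was at 94.6 to 124, 75.0 to 127 and 83.1 to 99.0 CPM, with log2 fold changes of -0.15 (SE 0.120), -0.10 (SE 0.137) and, for Fl/Fl 4-OHT against untreated, -0.26 (SE 0.0949). The last passed in 1 of 17 alternatives, without the untreated library of mouse 26 (-0.30).

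All 9 genes passed the filter on low counts in each comparison. For the deletion 4 of the 9 (Nras, Hras, Rala and Ralb) were called lower at an adjusted p under 0.05, where 15.0% of all genes tested were, and 0 were called higher, where 16.8% were (0 also at an unadjusted p under 0.05 in edgeR and by DESeq2). At that threshold the same 4 genes were called in all 17 alternatives, among them those without Fl/Fl 39 and without Fl/+ 4-OHT 36. Without these 2 libraries in turn the deletion log2 fold change was -0.40 and -0.43 for Hras, -0.27 and -0.23 for Rala, and -0.39 and -0.43 for Ralb. The genes that were not called were at 0.12 and -0.02 (Rras), 0.0024 and 0.05 (Rras2), 0.27 and 0.15 (Mras), -0.04 and -0.04 (Rap1a), and -0.19 and -0.08 (Rap1b). For 4-OHT 1 of the 9 (Rala) was called lower and 0 higher, beside 6.45% and 7.34% of all genes, and 1 was higher at an unadjusted p under 0.05 in edgeR and 0 by DESeq2. Without Fl/+ 4-OHT 36 Rala was at -0.60 and called, and the other 8 genes, Nras at 0.23 among them, were at -0.41 (Mras) to 0.48 (Rras) and not called. Without the untreated library of mouse 36 3 of the 9 were called, Nras higher (0.30) and Rala (-0.58) and Mras (-0.58) lower. The genes not called in that fit were at -0.23 (Ralb) to 0.20 (Rras). Its own share of all genes is not given, and 1271 to 2522 genes were called for 4-OHT over the fits without 1 library. In the fit with the mouse as a block Nras was also called higher, beside 11.9% lower and 13.8% higher. For Fl/Fl 4-OHT against untreated Nras, Hras, Rala and Ralb were called lower and 0 higher, beside 15.1% and 15.7% (0 higher also at an unadjusted p under 0.05 in edgeR and by DESeq2). Without Fl/Fl 39 the same 4 were called, at -0.82 (Nras), -0.35 (Hras), -0.82 (Rala) and -0.62 (Ralb), and the other 5 genes, at -0.29 (Rap1b) to 0.51 (Rras), were not. Without the untreated library of mouse 36 these 4 were called as well, at -0.78, -0.35, -0.86 and -0.62 in the same order. The other 5 genes, at -0.42 (Mras) to 0.28 (Rras), were not. Over the fits without 1 library 3772 to 4734 of all genes were called for the deletion and 3700 to 4735 for Fl/Fl 4-OHT against untreated. Scaled without TMM factors, all called genes split differently, moving from 2520 higher and 2253 lower to 2848 and 1951 for the deletion, from 1088 higher and 956 lower to 1396 and 712 for 4-OHT, and from 2357 and 2263 to 3150 and 1603 for Fl/Fl 4-OHT against untreated. The median log2 fold change of the 9 was -0.15, -0.10 and -0.26 in the 3 comparisons, against 0.02, -0.01 and 0.0025 over all genes tested. Since the genes were listed with these values known, nothing is read from the counts.

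**Figure D2:**
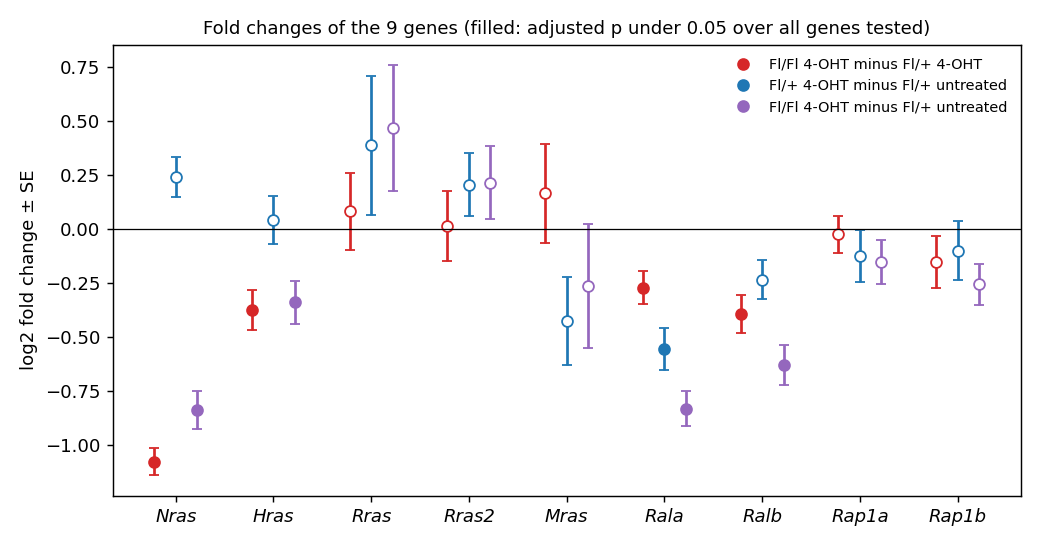
Log2 fold change (y axis) of each gene (x axis) in the 3 comparisons, with SE as bars; filled points had an adjusted p under 0.05 over all genes tested. For Nras the deletion value of -1.08 and the 4-OHT value of 0.24 have opposite signs, whereas both values of Rala are negative.

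Levels were compared between genes only per length, as TPM (counts divided by merged exon length and scaled to the same sum in every library). In untreated cultures Rala was highest at 187 ± 20.3 TPM, followed by Rap1b at 133 ± 19.0, Nras at 128 ± 18.7, Ralb at 87.5 ± 7.95, Rap1a at 86.4 ± 10.6, Mras at 76.5 ± 23.4, Rras at 76.4 ± 36.2, Hras at 61.9 ± 7.22 and Rras2 at 12.8 ± 2.01 TPM (SD, n = 5). The ranges of neighbours overlapped except those of Rala and Rap1b, of Nras and Ralb, and of Hras and Rras2. After 4-OHT Nras was first with 169 ± 12.5 TPM, and only Rras2, at 16.5 ± 3.01 TPM, did not overlap its neighbour. In Fl/Fl cultures Nras was the fifth with 80.7 ± 3.63 TPM, after Rap1b (125 ± 8.61), Rras (119 ± 14.6), Rala (118 ± 4.31) and Rap1a (87.7 ± 5.57), and it overlapped Rap1a and, below it, Mras. With the length of the longest transcript in place of merged exons Nras kept its place as the third, the first and the fifth, while Ralb moved from 87.5 to 120.5 TPM and to the second place in untreated cultures.

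The share of Nras in the summed TPM of the 9 genes was 15.1% ± 2.38 in untreated cultures, 19.1% ± 0.835 in Fl/+ cultures after 4-OHT and 10.9% ± 0.293 in Fl/Fl cultures. The sum itself was 850.0 ± 32.8, 885 ± 34.2 and 738 ± 42.2 TPM. Without Nras the other 8 genes summed to 722 ± 40.0, 716 ± 23.6 and 658 ± 39.1 TPM. Rala had the largest share in untreated cultures, 21.95% ± 1.83, and 16.0% in both groups given 4-OHT. The share of Rras was 8.89% ± 3.93, 12.7% ± 3.61 and 16.1% ± 1.62.

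Within a library the ratio of Nras to a paralog does not depend on the scaling. In Fl/Fl cultures the log2 ratio was lower than in Fl/+ 4-OHT cultures for each of the 8 paralogs, with differences from -0.68 (Ralb) to -1.19 (Rras), and the 5 values of one group did not overlap those of the other for any of the 8. Of all 15035 other genes tested, 76.3% gave such a lower ratio without overlap, and nothing particular to the paralogs is read from it. The comparison uses the values that placed Nras at the head of the list and is a description. Against Rala the log2 ratio was -0.55 ± 0.272 in untreated, 0.26 ± 0.131 in Fl/+ 4-OHT and -0.55 ± 0.0828 in Fl/Fl 4-OHT cultures, so the treated Fl/+ group stood above both others. Against Rap1b it was -0.06 ± 0.0612, 0.31 ± 0.229 and -0.64 ± 0.118. Against Hras, the closest relative listed, it was 1.05 ± 0.264, 1.26 ± 0.241 and 0.55 ± 0.106.

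**Figure D3:**
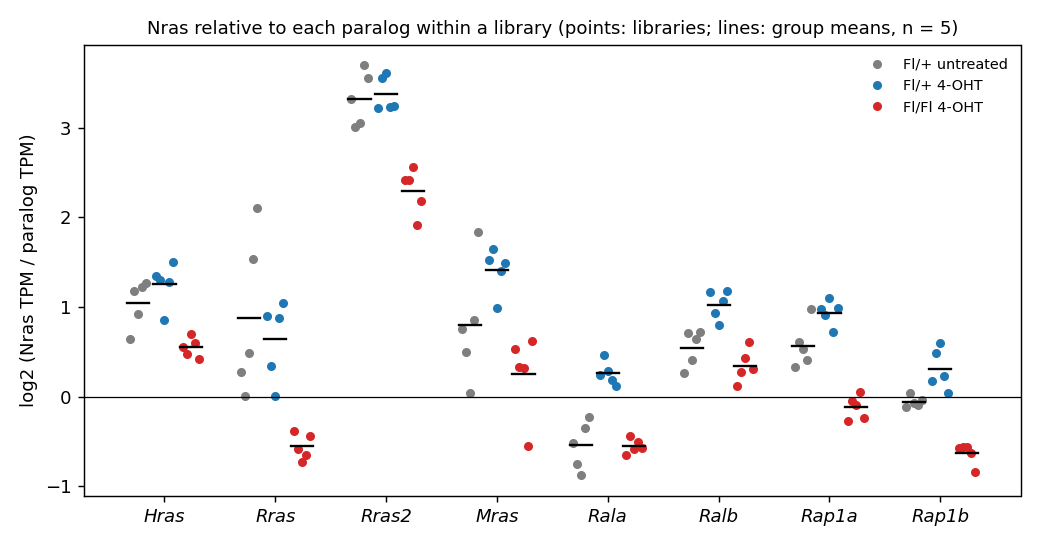
Log2 ratio of Nras TPM to the TPM of each paralog (y axis) within each of the 15 libraries, by paralog (x axis) and group; lines are means of 5. For each paralog the Fl/Fl 4-OHT points lie below the Fl/+ 4-OHT points, and for Rala they lie in the range of the untreated ones.

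By the root mean square difference of centred log2 profiles over the 15 libraries, the genes most like Nras among 13333 were Morf4l2 (0.15), Jade1 (0.16), Sec23a (0.16), Fnbp1l (0.17) and Bach1 (0.17). Morf4l2 was at 139 ± 14.8, 152 ± 21.7 and 85.7 ± 6.22 CPM in untreated, Fl/+ 4-OHT and Fl/Fl 4-OHT cultures, and Fnbp1l at 121 ± 18.6, 122 ± 16.9 and 58.9 ± 4.75 CPM. The members of the family were less like it, with Ralb at rank 630 and Hras at rank 913, and Rras at rank 11616.

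The other genes of the pathway were counted in 6 lists of known roles. The genes named below as the largest rises and falls are those with a mean of at least 1 CPM, and called genes under that level are only counted. The lists were drawn up by role, with earlier results of these data known, and each adjusted p comes from edgeR's quasi-likelihood test over all genes. After the deletion the lists moved in both directions, beside the 16.8% of all genes called higher and 15.0% called lower. Of 20 other Ras-family GTPases tested (24 listed), 2 rose and 4 fell, with a median log2 fold change of -0.09. Scaled by library size alone, 2 rose and 3 fell, where 2848 of all genes were called higher and 1951 lower. The 2 rises were Rasl10b (0.74, SE 0.166, adjusted p 0.00674), a Ras-like GTPase, and Nkiras1 (0.49, SE 0.0949, adjusted p 0.00341), which binds an inhibitor of NF-kB. The largest falls were Rem2, a regulator of calcium channels, from 2.87 ± 1.06 to 0.775 ± 0.205 CPM (adjusted p 0.000886), and Rhebl1 (-0.51, adjusted p 0.0408), which passed in 7 of 17 alternatives.

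Among the genes that switch the GTPases on and off, 4 of 19 exchange factors tested (21 listed) rose and 3 fell (median -0.04). Rasgrf1, a calcium-dependent Ras exchange factor, rose from 1.51 ± 0.538 to 4.94 ± 3.29 CPM (1.72 ± 0.394 on the log2 scale, SE, adjusted p 0.00724), and Rapgefl1 rose from 4.89 ± 1.18 to 11.02 ± 3.43 CPM (adjusted p 0.00364). Among genes of at least 1 CPM the largest falls were Rapgef6, a Rap exchange factor (-0.42, adjusted p 0.00829), and Ralgps2, a Ral exchange factor (-0.38, SE 0.0578, adjusted p 0.000915). Of 19 GAPs tested (20 listed) 1 rose and 4 fell (median 0.0038), or 2 and 4 when scaled by library size alone, where 2848 of all genes were called higher and 1951 lower. The rise was Sipa1, which acts on Rap (0.38, adjusted p 0.0169), and its call was lost without Fl/+ 4-OHT 19 (0.32). The largest falls were Ralgapa2, a subunit of the Ral GAP complex (-0.50, SE 0.112, adjusted p 0.00689), and Rap1gap2 (-0.48, adjusted p 0.0359), which passed in 11 of 17 alternatives.

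Of 14 genes for lipid anchoring and membrane delivery, 4 rose and 2 fell, with a median of 0.25, or 6 and 1 by library size alone, beside the same 2848 and 1951 genes. They include the enzymes that take palmitate off N-Ras, a step of its cycle between the Golgi and the plasma membrane. Abhd17a rose from 95.5 ± 18.4 to 160 ± 23.7 CPM (0.76 ± 0.144 on the log2 scale, SE, adjusted p 0.00285) and Lypla1 rose by 0.47 (adjusted p 0.00729). Abhd17b fell by 0.31 (adjusted p 0.0359, passed in 9 of 17 alternatives) and Abhd17c fell by 0.22 (adjusted p 0.0125). Lypla2, named after its values were seen, was at 270.2 ± 31.7 and 331 ± 59.9 CPM (log2 fold change 0.31, adjusted p 0.0786).

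Of 24 effectors 2 rose and 7 fell (median -0.09), or 2 and 5 by library size alone, beside the same 2848 and 1951 genes. Raph1 (lamellipodin), which links membrane signals to actin, fell from 16.8 ± 1.77 to 6.25 ± 0.557 CPM (-1.42 ± 0.112 on the log2 scale, SE, adjusted p 4.2e-05). Ksr1, a scaffold of the Raf cascade, fell by 0.52 (adjusted p 0.00347), and Map2k2, a MEK kinase, rose by 0.37 (adjusted p 0.0283, passed in 11 of 17 alternatives). Of 18 genes induced through ERK signalling or feeding back on it 4 rose and 3 fell (median 0.04), or 4 and 2 by library size alone. Dusp5, a nuclear ERK phosphatase, rose from 20.6 ± 4.59 to 38.7 ± 8.28 CPM (0.92 ± 0.171 on the log2 scale, SE, adjusted p 0.00247), and Ccnd1 (cyclin D1) rose from 1708 ± 272 to 2503 ± 413 CPM (adjusted p 0.0117, and 0.169 in a fit over all 15 libraries). Etv1, an ETS factor, fell from 60.8 ± 7.12 to 38.2 ± 4.00 CPM (adjusted p 0.000831). Spry4, a feedback inhibitor of receptor signalling, fell by 0.32 (adjusted p 0.0481), and passed in 6 of 17 alternatives.

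In Fl/+ cultures after 4-OHT, where 7.34% of all genes were called higher and 6.45% lower, 3 of 20 other Ras-family GTPases rose and 3 fell (median -0.10), and with the mouse as a block, where 13.8% and 11.9% of all genes were called, 4 and 4 did. Diras2 rose from 6.51 ± 3.79 to 17.5 ± 6.65 CPM (adjusted p 0.0325, passed in 11 of 18 alternatives) and Rasl11a rose by 0.67 (adjusted p 0.00909). Rasl11b fell from 8.81 ± 1.47 to 4.73 ± 0.966 CPM (adjusted p 0.0108), and Rit1, a Ras-like activator of MAP kinases, fell by 0.58 (adjusted p 0.00708). Of the exchange factors 2 rose and 1 fell (median 0.10), or 4 and 1 with the block, beside the same 13.8% and 11.9%. Rgl1, which activates Ral, rose by 0.46 (adjusted p 0.0323, passed in 12 of 18), and Rasgrp2, a Rap exchange factor, fell from 4.30 ± 0.466 to 2.19 ± 0.588 CPM (adjusted p 0.0117).

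Of the GAPs 7 of 19 were called higher after 4-OHT and 2 lower, beside 7.34% and 6.45% of all genes, with a median of 0.24. Sipa1 rose from 32.1 ± 1.78 to 49.4 ± 7.24 CPM (0.62 ± 0.106 on the log2 scale, SE, adjusted p 0.00389) and Rasa2 rose by 0.63 (adjusted p 0.0498, passed in 7 of 18). Rap1gap, the best known GAP of Rap1, fell from 324 ± 77.2 to 171 ± 30.7 CPM (-0.92 ± 0.169 on the log2 scale, SE, adjusted p 0.00552), and Rasa3 fell by 0.31 (adjusted p 0.0446, passed in 7 of 18). Of 14 membrane genes and 24 effectors 0 passed in either direction. At an unadjusted p under 0.05 in edgeR 1 membrane gene was higher and 2 lower, and 5 effectors were higher and 1 lower, and DESeq2 called 0 membrane genes and 3 effectors, all 3 higher. By library size alone, where 1396 of all 14821 genes tested were called higher and 712 lower, 1 effector was called higher. The GAPs were then 7 higher and 1 lower. With the mouse as a block, where 13.8% of all genes were called higher and 11.9% lower, 4 effectors passed as higher, and the counts of the GAPs became 9 higher and 2 lower.

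The ERK target genes had the highest median of the lists after 4-OHT, 0.39, with 6 of 18 called higher and 0 lower, beside 7.34% and 6.45% of all genes (1 lower at an unadjusted p under 0.05 in edgeR, and 0 by DESeq2, which called 8 higher). With the mouse as a block 8 were higher and 1 lower, beside 13.8% and 11.9%. The lower one was Etv4, named after its values were seen, with a log2 fold change of -0.48. In the main fit it was at -0.45 and not called. Ier3, an immediate early gene, rose from 14.8 ± 6.06 to 60.6 ± 24.0 CPM (2.04 ± 0.315 on the log2 scale, SE, adjusted p 0.0024), and Dusp4, an inducible MAP kinase phosphatase, rose from 4.79 ± 1.13 to 11.5 ± 0.809 CPM (1.26 ± 0.170 on the log2 scale, SE, adjusted p 0.00127). For Fl/Fl 4-OHT against untreated cultures 8 of the 18 were called higher and 1 lower, with a median of 0.53. Beside the 15.7% and 15.1% of all genes, the other lists had 3 higher and 7 lower of 20 GTPases, 2 and 2 of 19 exchange factors, 4 and 3 of 19 GAPs, 3 and 0 of 14 membrane genes (0 lower also at an unadjusted p under 0.05 in edgeR and by DESeq2), and 5 and 4 of 24 effectors. These splits depended on the scaling. By library size alone 3150 of all 15032 genes tested were called higher and 1603 lower. Beside these, 10 ERK target genes were higher and 1 lower, and the other lists had 3 higher and 5 lower GTPases, 4 and 1 exchange factors, 6 and 1 GAPs, 5 and 0 membrane genes, and 7 and 2 effectors.

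**Figure D4:**
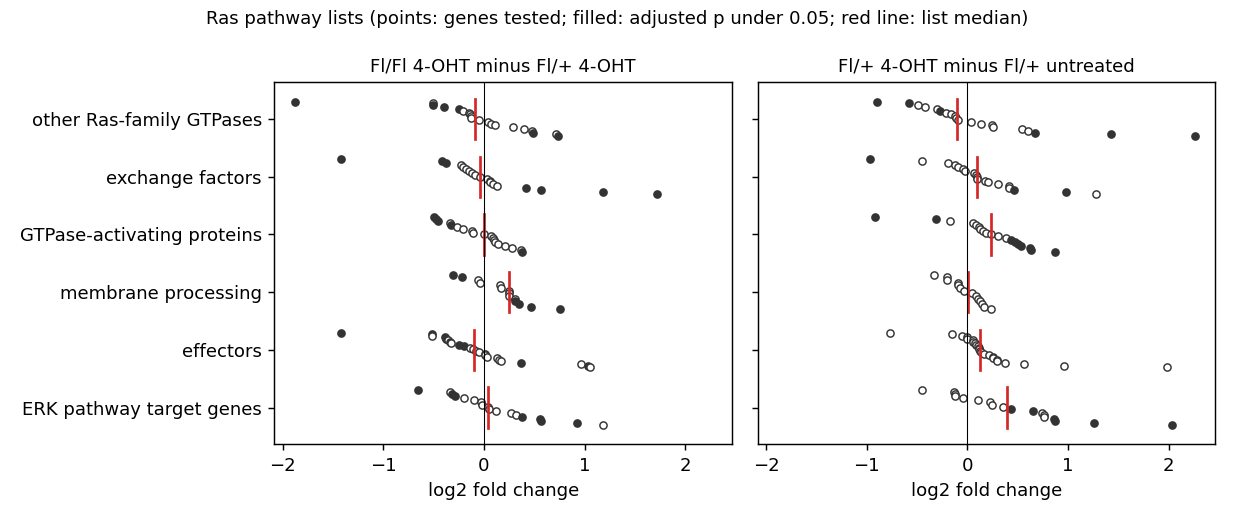
Log2 fold change (x axis) of each tested gene of the 6 lists (y axis) after the deletion (left) and after 4-OHT (right); filled points had an adjusted p under 0.05 over all genes tested and red lines are list medians. Points lie on both sides of 0 in each list after the deletion, and after 4-OHT no membrane or effector gene is filled while 6 ERK target genes are.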

How the data were processed

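Strand-specific single-end libraries were made from poly(A) RNA of 15 cultures. The authors mapped the reads with STAR 2.5.4b to GRCm38 and counted uniquely mapped reads per Ensembl gene with featureCounts 1.5.0. The deposited values are raw counts of 53801 genes, not normalized. Multi-mapping reads were left out upstream, so counts of paralogs and of their pseudogenes may be too low. Symbols, positions and exon lengths came from a GENCODE annotation of GRCm38.

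Groups and mouse numbers came from the labels. The labels and the study's methods differ on the 4-OHT dose, which is not given here. The 3 comparisons used 10 libraries each, with edgeR 4.0.16 in R 4.3.3 (filterByExpr with a minimum count of 10, TMM, quasi-likelihood F test, Benjamini-Hochberg over all genes tested, threshold 0.05). The study used DESeq2, here an alternative (1.42.0). The test was also run on counts simulated from the fitted means and spreads of these data, and that outcome is not given here. Totals were 25.7 M to 32.2 M counts, and counting intervals would cover counting error only, not the spread between cultures.

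The 9 genes and the lists were chosen with earlier results of these data known. Apart from Lypla2 and Etv4, named list genes are the 2 largest rises and 2 largest falls per list among those with an adjusted p under 0.05 and a mean of at least 1 CPM. Both Fl/+ groups come from the same mice. Deviations from group means correlated with r of 0.153 to 0.634 over 14821 genes within a mouse, and -0.559 to 0.35 between mice. The mouse is therefore used as a block in an alternative for 4-OHT. The result for 1 further gene is not reported here.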

Additional observations from a re-analysis of the deposited data

Results flagged for a closer look

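Among 30 sets of 5 libraries (the 9 genes and Trrap in 3 groups), 2 held a library farther from the other 4 than Dixon's limit for 5 values allows, and chance gives about 1 in 20. Mras was at 164 CPM in Fl/Fl 37, against 64.0 to 84.1 CPM in the other Fl/Fl libraries. Hras was at 80.5 CPM in the untreated culture of mouse 19, against 58.0 to 64.5 CPM in the other 4. The first turns the sign of the Mras deletion value when it is left out, and the cause was not tested.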

How the results depend on the processing

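For the deletion, 51 of 51 counts of called genes (all genes, the 9 members, the 6 lists together) stayed within 1.5 times the reported ones over the alternatives, and so did 51 of 51 for Fl/Fl 4-OHT against untreated. For 4-OHT 48 of 54 did. With the mouse as replicate block, a paired analysis, the 4-OHT comparison gave 3809 genes in place of 2044, 2 members in place of 1 and 37 list genes in place of 24, and it changed no other call of a member. Leaving out 1 library gave 1271 (without Fl/+ 4-OHT 19; 1311 without Fl/+ 4-OHT 35) to 2522 genes and 1 to 3 members, the 3 without the untreated culture of mouse 36. Fewer samples remain in these fits. With the longest transcript as length, Nras was at 153 TPM in Fl/+ 4-OHT and 73.2 TPM in Fl/Fl 4-OHT cultures in place of 169 and 80.7.

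Small log2 fold changes that passed nowhere turned sign. For the deletion, leaving out 1 library gave -0.015 to 0.21 for Rras, -0.15 to 0.076 for Rras2, -0.16 to 0.27 for Mras and -0.10 to 0.0094 for Rap1a. Rras2 was at -0.00082 with DESeq2 and at -0.00021 in a fit over all 15 libraries, and Rap1a at 0.0063 with library size alone. For 4-OHT the ranges were -0.021 to 0.12 for Hras and -0.18 to 0.0068 for Rap1b. The cause was not tested. Of 468 values of the 9 genes over the alternatives, 448 kept direction and side of the threshold.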
